A study of Rattus norvegicus with 18 samples.

Results

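The comparison described here is between H9C2 cells that had been given PE and then 50 electric pulses and H9C2 cells given the same 50 pulses without PE. H9C2 is an established rat line derived from embryonic heart tissue, and the labels give its cell type as myocardium. The 3 libraries of PE-treated pulsed cells (P_ES50) and the 3 libraries of pulsed cells without PE (ES50) were taken from a set of 18, by their labels alone and not by any measured value. ES50 cells received 50 pulses of 100 µs at 1500 V/cm. P_ES50 cells were kept in PE at 50 µmol/L for 48 h and then received the same pulses. The other 12 libraries, 3 a group, were used only for reference. These were untreated cells (NC), cells given 10 such pulses (ES10), cells given PE alone (P) and cells given PE and then 10 pulses (P_ES10). The labels do not spell out PE, and the time from pulses to harvest is not given in the sources used here. As replicates are only numbered, the p-values measure the spread between these 3 libraries a group, which may be technical. Of 32545 genes in the table, 11917 were tested, of which 11883 are nuclear and 34 lie on the mitochondrial genome. The 2 kinds are described apart.

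Short pulses of high voltage open pores in the plasma membrane, and strong enough exposures kill the cell. The mitochondrial genome encodes ribosomal RNAs, transfer RNAs and a small set of respiratory chain mRNAs, which are made and kept inside the organelle. All other mRNAs, including those for most respiratory chain subunits, are made in the nucleus and translated in the cytosol or on the endoplasmic reticulum (ER).

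PE-treated cells given 50 pulses carried far more nuclear RNA among their reads than cells given 50 pulses alone. Mitochondrial genes took 91.4%, 92.1% and 92.9% of the reads in the ES50 libraries (92.1% ± 0.728, SD, n = 3) and 46.7%, 49.5% and 49.6% in the P_ES50 libraries (48.6% ± 1.66, SD, n = 3). The groups did not overlap, with a difference of -43.5 percentage points and an exact permutation p of 0.1 (two-sided), the smallest that 3 against 3 libraries can give. The P_ES50 share was still far above the mean of 12.9% in NC, 9.44% in ES10, 5.48% in P and 6.46% in P_ES10. Total reads assigned to genes lay between 14979183 and 17247201 in these 6 libraries. Nuclear genes received 1230554 to 1466851 reads in ES50 and 7813779 to 8060502 in P_ES50, so the depth behind nuclear values differed between the groups. A gene count at FPKM of at least 1 gave 10164 to 10242 genes in ES50 and 10851 to 10859 in P_ES50. In such bulk samples, fewer cells of a kind and less RNA per cell cannot be told apart.

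**Figure D1:**
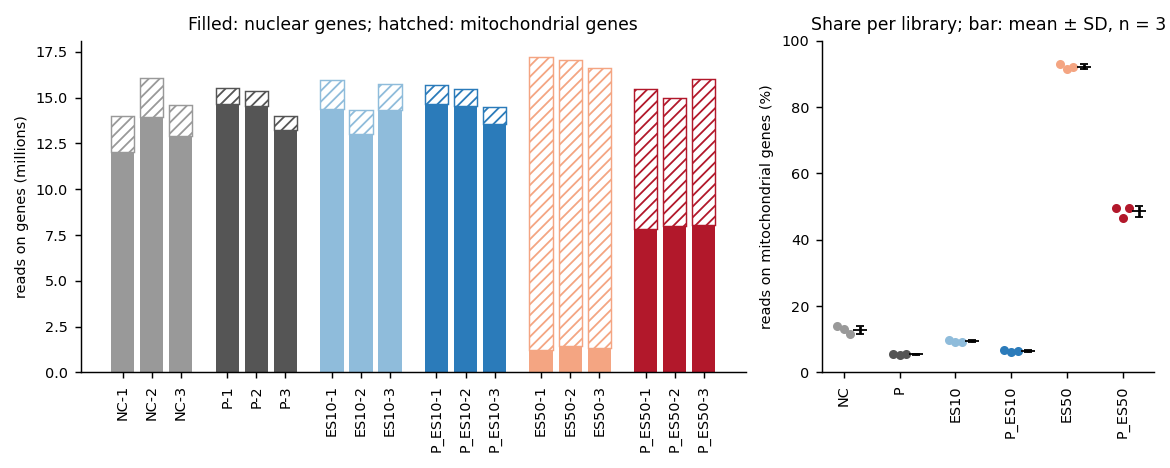
Reads assigned to genes in each library, split into nuclear and mitochondrial genes, with 3 libraries in each of the 6 groups (left), and the mitochondrial share in percent per library with the mean and SD (right). Nuclear reads number 1230554 to 1466851 in the ES50 libraries and 7813779 to 8060502 in the P_ES50 libraries.

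The values are FPKM, read counts scaled to gene length and to a library's depth, as the authors deposited them. In all 18 libraries the depth they are scaled to follows nuclear reads (1.76 to 1.90 times) and not total reads (0.129 to 1.79 times). A nuclear gene's FPKM is therefore its level relative to other nuclear genes in that library, and a fall says that its share of nuclear RNA fell. All log2 differences below are of log2(FPKM + 1), P_ES50 minus ES50, which understates changes of genes with low values, and a call is an adjusted p under 0.05 in limma over all 11917 genes.

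Of the 11883 nuclear genes, 3387 were higher in P_ES50 (28.5%) and 2871 were lower (24.2%), which together is 52.7% of those tested. With the mitochondrial genes, 6289 of all 11917 genes were called (52.8%). Differences of at least 2-fold were found in 1708 genes called higher and 1010 called lower, which is 14.4% and 8.5% of all nuclear genes tested. The median nuclear gene differed by 0.09. Scaled to total reads instead, the median was 1.75 and the calls were 11117 higher and 11 lower; with quantile scaling they were 2844 higher and 3325 lower. The changes below are thus changes of composition among nuclear transcripts. With the recovered reads thinned to the shallowest library's 1230554 nuclear reads, 2671 of the higher calls (78.9%) and 2358 of the lower calls (82.1%) were made again in the same direction. Under 30 reads over the 3 ES50 libraries stood behind 993 of the higher calls (29.3%) and 117 of the lower calls (4.08%), against 24.1% of all nuclear genes.

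In their nuclear transcripts the PE-treated pulsed cells lay closer to each of the 4 groups given 0 or 10 pulses than to ES50. Over the 11883 genes the median absolute log2 difference of group means was 0.166 between P_ES50 and NC, 0.204 between P_ES50 and P, 0.196 between P_ES50 and ES10, 0.186 between P_ES50 and P_ES10, and 0.597 between P_ES50 and ES50. The P_ES50 mean lay within 2-fold of the P mean for 11616 genes (97.8%), and the ES50 mean did so for 8291 (69.8%). ES50 had the lowest mean of the 6 groups for 3330 of the 3387 genes called higher (98.3%) and the highest for 2779 of the 2871 called lower (96.8%), shares that the choice of called genes favours. Over all nuclear genes ES50 was lowest in 46.1% and highest in 38.3%, and P_ES50 was lowest in 10.5% and highest in 9.05%. The ES50 libraries had the fewest nuclear reads and were the least alike. Their Pearson correlations with each other were 0.945 to 0.952, against 0.978 to 0.979 among P_ES50 libraries. Counting error at low depth widens distances to ES50 and makes it the extreme group more often. The size of that part was not tested.

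**Figure D2:**
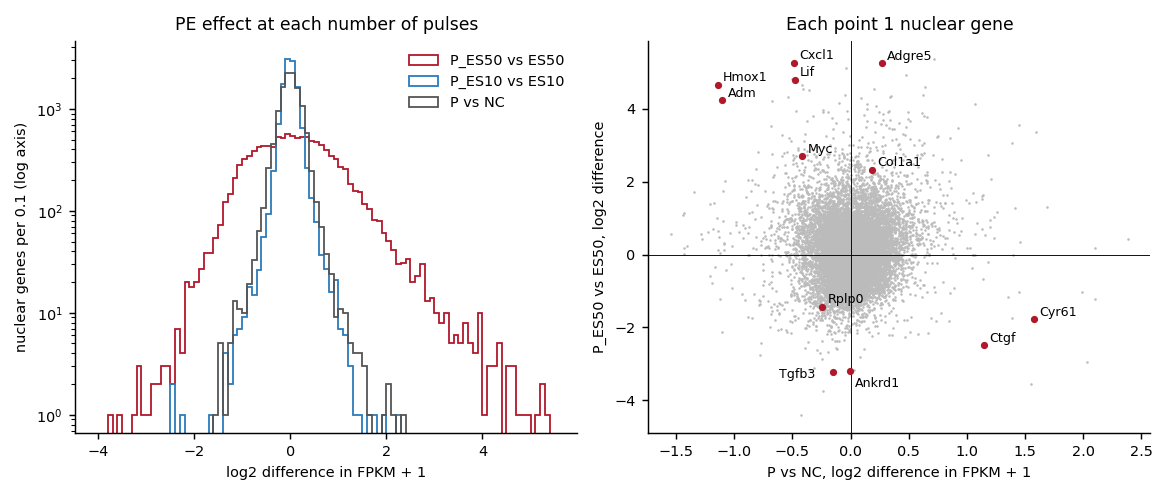
Distribution of the log2 difference between PE-treated and untreated cells over the 11883 nuclear genes tested, without pulses, with 10 pulses and with 50 pulses, with a log axis for gene counts (left), and the difference after 50 pulses against that without pulses, 1 point a gene (right). The distribution with 50 pulses is the widest, with an SD of 0.933 against 0.255 without pulses and 0.206 with 10.

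Several cytokine and stress genes were at or near 0 FPKM in ES50 libraries and well expressed in P_ES50. Of 16 NF-kB and cytokine genes tested, 14 were higher and 1 lower, with a median of 1.58. For this and all lists below, the shares over all nuclear genes were 28.5% higher and 24.2% lower. NF-kB is a transcription factor of inflammatory signalling that binds sites close to GGG, any 3 bases and TTCC. In the 250 bases before the start of Cxcl1, a neutrophil-attracting chemokine and the list's most changed member, 3 matches on either strand are in capitals, of which the last 2 overlap. The sequence is RefSeq's, build GRCr8, chr14:17479322-17479571, minus strand, and is shown because it is the promoter of the list's leading gene.
Cxcl1 promoter: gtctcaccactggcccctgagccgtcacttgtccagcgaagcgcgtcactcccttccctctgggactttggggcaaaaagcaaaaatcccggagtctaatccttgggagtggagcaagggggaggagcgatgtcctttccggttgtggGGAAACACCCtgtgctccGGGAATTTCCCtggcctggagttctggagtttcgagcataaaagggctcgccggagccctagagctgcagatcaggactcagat
In the matching windows of Ptgs2 and Icam1 these exact letters do not occur. Variants of the site were not searched for, so this does not show that these windows lack one. No promoter was found for Lif and Ccl2. The exact letters occur in 5.42% of the 8426 promoters found for tested nuclear genes, in 5.93% of those of higher genes and in 4.88% of those of lower genes.

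Cxcl1 read 2.92, 0 and 7.35 FPKM in ES50 and 122, 117 and 125 in P_ES50 (log2 difference 5.26 ± 0.73, adjusted p = 0.0016). The groups did not overlap, and the gene lies on chromosome 14 at 18743685 to 18745457, minus strand, in the files' Rnor_6.0 build. Its means were 61.1 in NC, 43.4 in P, 123 in ES10 and 166 in P_ES10. Lif, a cytokine of the interleukin 6 family, read 1.42, 0.683 and 1.72 FPKM in ES50 and 64.4, 58.4 and 59.6 in P_ES50, a difference of 4.79 ± 0.19 and without overlap. Ccl2, a monocyte-attracting chemokine, averaged 1.63 ± 1.54 and 44.9 ± 2.19 (difference 4.35). Ptgs2, the inducible enzyme of prostaglandin synthesis, averaged 2.17 ± 0.737 and 47.0 ± 1.77 (difference 3.94). The adhesion receptor Icam1 rose from 12.2 to 103. The lower member was Cxcl12, a chemokine of stromal cells, at 22.1 and 8.77.

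Hmox1 encodes haem oxygenase 1, which breaks down haem and is a textbook target of the antioxidant factor NRF2. It read 69.6, 72.8 and 94.0 FPKM in ES50 and 1978, 2019 and 2012 in P_ES50, a log2 difference of 4.66 ± 0.11 (adjusted p = 3.6e-06). Every P_ES50 library was far above every ES50 library. Its P_ES50 level was also the highest of the 6 group means, which were 329 in NC, 149 in P, 1152 in ES10 and 1035 in P_ES10. The gene lies on chromosome 19 at 14508616 to 14515456, plus strand. Of 20 NRF2 antioxidant targets tested, 12 were higher and 5 lower, with a median of 0.42. The share of lower calls was near the 24.2% of all nuclear genes, of which 28.5% were higher. Txnrd1, a thioredoxin reductase, averaged 25.8 ± 1.05 in ES50 and 137 ± 3.81 in P_ES50, against 67.2 in NC, 99.8 in ES10 and 101 in P_ES10. Nqo1, a quinone reductase, went from 68.9 to 356, against 149 in NC. Ftl1, the ferritin light chain that stores iron, was lower as deposited, at 3334 and 1638 (difference -1.02), but was 1.73 scaled to total reads and 0.21 with quantile scaling.

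Immediate early genes, which are induced within minutes of a stimulus, were higher in 18 of 27 and lower in 6, with a median of 0.91. Lower calls were near the 24.2% of all nuclear genes, of which 28.5% were higher. Dusp5, a phosphatase of nuclear ERK kinase, averaged 4.77 ± 0.292 and 115 ± 4.65 FPKM (difference 4.34 ± 0.07). Fosl1, a subunit of the AP-1 factor, averaged 15.1 and 157, and Ier3, an early response gene, 39.8 and 269.6. Myc, a growth-promoting transcription factor, read 4.24, 9.10 and 7.82 in ES50 and 48.4, 51.3 and 48.3 in P_ES50, without overlap (difference 2.70 ± 0.24). Its means were 19.7 in NC, 14.6 in P, 39.4 in ES10 and 44.7 in P_ES10. Maff, a small Maf factor, was among the lower ones at 83.1 and 39.0.

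Of 15 hypoxia targets 10 were higher and 3 lower, with a median of 1.02, beside 28.5% higher and 24.2% lower among all nuclear genes. Adm, the precursor of the vasodilating peptide adrenomedullin, averaged 0.803 ± 0.181 and 32.8 ± 1.64 FPKM (difference 4.23 ± 0.12), with 12.1 in NC, 5.11 in P, 29.0 in ES10 and 25.6 in P_ES10. Vegfa, an angiogenic growth factor, went from 11.6 to 90.5, the glucose kinase Hk2 from 4.52 to 24.5, and P4ha1, a collagen prolyl hydroxylase, from 24.5 to 69.5. Of 23 genes of the integrated stress response driven by ATF4, 18 were higher and 2 lower, with a median of 0.78. Among them were the subunits of a large amino acid transporter, with Slc7a5 at 13.5 and 91.8 and Slc3a2 at 46.1 and 204. Slc7a11, the cystine transporter, averaged 0.605 in ES50, 10.3 in P_ES50, 3.48 in NC and 1.58 in P. The transcription factor Atf5 was the list's most lowered member, at 617 and 171 (difference -1.85). Of 19 p53 targets, 12 were higher and 5 lower (median 0.59), with a share of lower calls near the 24.2% of all nuclear genes. The p53 targets included the growth arrest gene Gadd45a, which rose from 51.7 to 117, and Ccng1, a cyclin induced by p53, which fell from 126 to 51.3.

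**Figure D3:**
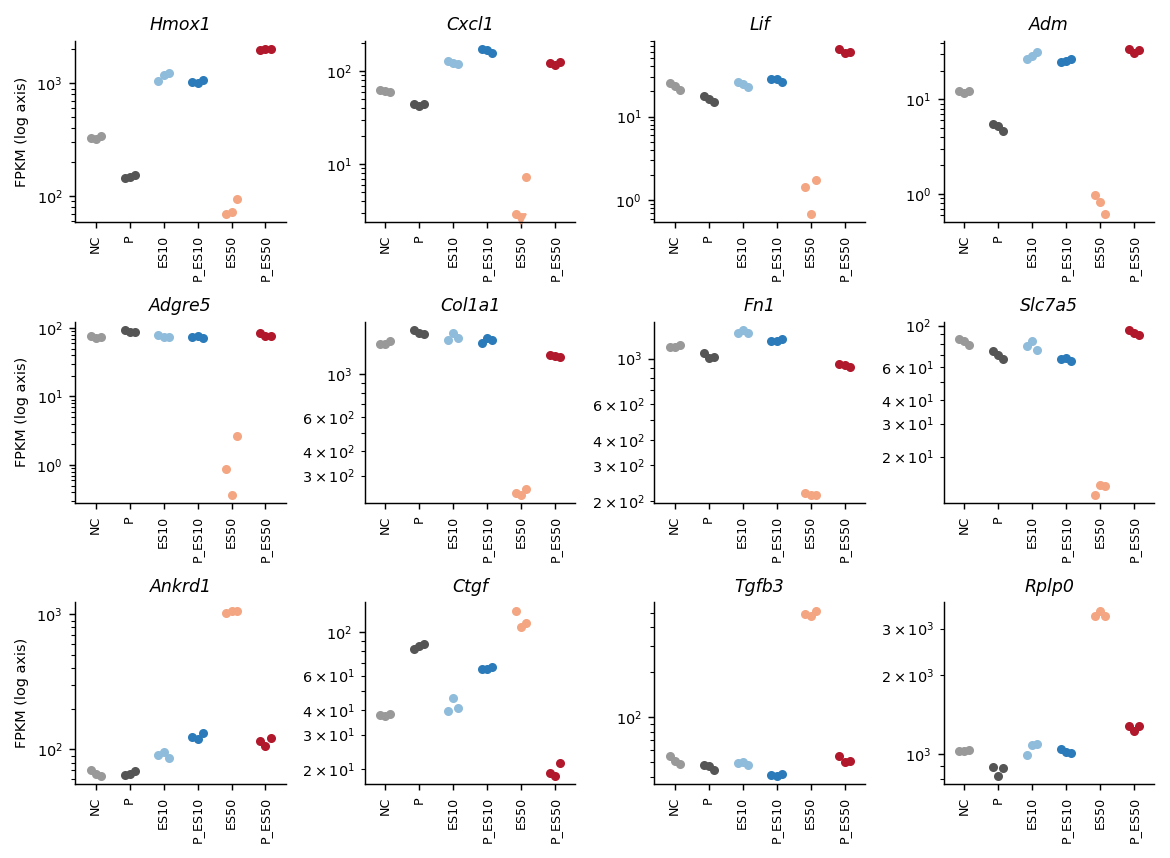
FPKM of selected nuclear genes in each of the 18 libraries on a log axis, 1 point a library, with values of 0 drawn as triangles at the bottom. For Hmox1 the P_ES50 points are the highest of all groups, at 1978, 2019 and 2012, and for Tgfb3 and Ankrd1 the ES50 points are the highest.

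The lists with increases and no lower call were those of matrix proteins, adhesion receptors and growth factor and cytokine receptors, all secreted or carried at the cell surface. Of 23 extracellular matrix genes tested, 22 were higher in P_ES50 and none lower, with a median of 2.11 (3.96 scaled to total reads), beside 28.5% higher among all nuclear genes. Col1a1, a chain of type I collagen, read 244, 239 and 257 FPKM in ES50 and 1257, 1235 and 1231 in P_ES50, a log2 difference of 2.33 ± 0.04 (adjusted p = 1.5e-06). All P_ES50 libraries lay far above all ES50 libraries and below the NC mean of 1449 and the P mean of 1646. Col3a1, the chain of type III collagen, averaged 53.7 ± 4.03 and 338 ± 3.13 (difference 2.63), and Fn1, fibronectin, 217 ± 2.98 and 927 ± 15.9 (difference 2.09). The basement membrane genes Lamc1 and Col4a1 rose from 20.9 to 131 and from 33.0 to 179.8.

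All 19 integrins and adhesion receptors tested were higher, with a median of 1.75 and a range of 0.82 to 5.25. Adgre5, the adhesion receptor CD97, was the most changed, at 0.869, 0.367 and 2.60 FPKM in ES50 and 84.2, 76.4 and 76.4 in P_ES50 (difference 5.25 ± 0.34). Its P_ES50 values lay beside the NC mean of 74.5, and its ES50 values near 0. Cd44, the hyaluronan receptor, went from 17.0 to 137, the heparan sulphate proteoglycan Sdc1 from 21.3 to 135, and Itga3, an integrin that binds laminin, from 7.01 to 42.3. Growth factor and cytokine receptors were higher in 16 of 18 and lower in none (median 1.45). Epha2, a receptor for ephrins, averaged 4.66 and 34.0, Il6st, the shared receptor of interleukin 6 type cytokines, 7.64 and 46.9, and the endocytic receptor Lrp1 7.62 and 46.9.

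Genes of the ER, where these proteins are folded, were higher in 19 of 22 and lower in 1, with a median of 0.96. For this list and the next ones, 28.5% of all nuclear genes were higher and 24.2% lower. P4hb, a protein disulphide isomerase, averaged 200.4 ± 8.12 and 480.4 ± 10.2 (difference 1.26), and the ER chaperone Hsp90b1 82.0 and 178. The further disulphide isomerases Pdia3 and Pdia6 differed by 1.00 and 0.87. Of 32 genes of the secretory machinery 18 were higher and 7 lower, with a median of 0.50. Rpn2, of the complex that attaches sugars to new proteins, rose from 65.2 to 141, whereas Sec61b, a small subunit of the translocation channel, fell from 330.1 to 137. Genes of autophagy and the lysosome were higher in 15 of 29 and lower in 6 (median 0.59), with the protease Ctsb at 135 and 390.1 and the saposin precursor Psap at 64.9 and 255. Calcium handling genes and ion channels were higher in 14 of 25 and lower in 8 (median 0.61). Among them the mechanically gated channel Piezo1 went from 4.86 to 29.9, the plasma membrane calcium pump Atp2b1 from 4.70 to 57.9, and the ER calcium release channel Itpr3 from 1.56 to 13.3. The NC means of these genes were 40.1, 61.7 and 13.6.

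**Figure D4:**
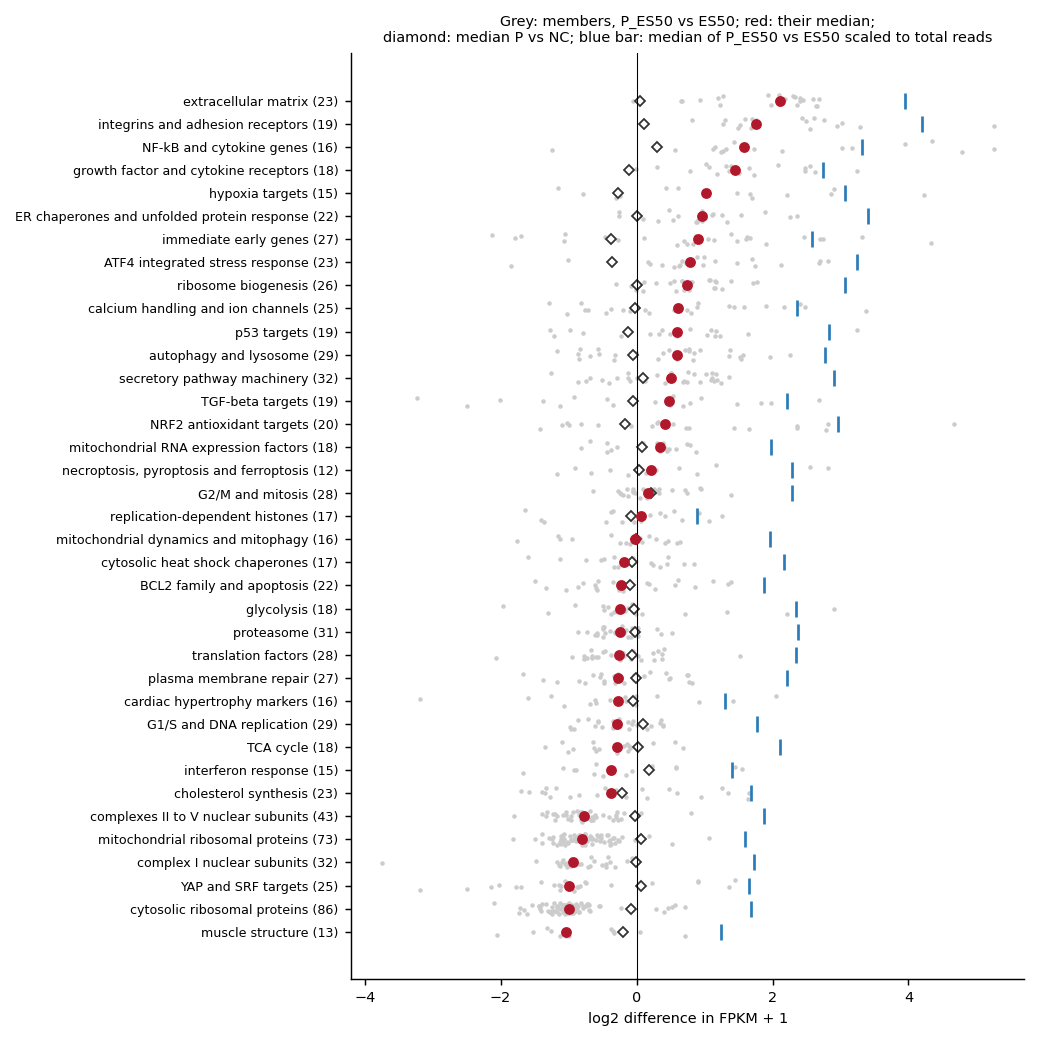
Log2 difference of P_ES50 against ES50 for the tested members of the gene lists, 1 point a gene, with the list's median in red, its median for P against NC as a diamond and its median scaled to total reads as a blue bar. Extracellular matrix genes (median 2.11) and adhesion receptors (median 1.75) lie to the right of 0, and cytosolic ribosomal protein genes (median -1.0) and complex I subunits (median -0.93) to the left.

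Targets of YAP and SRF, factors that respond to cell tension and actin, were mostly lower in P_ES50. YAP acts through TEAD proteins, whose sites hold the letters GGAATG. The 250 bases before the start of 3 textbook targets are given with these letters, on either strand, in capitals, because these genes are textbook YAP targets among the most lowered of the list. All are RefSeq's, build GRCr8: Ctgf (RefSeq symbol Ccn2) at chr1:22624615-22624864, minus strand, Cyr61 (Ccn1) at chr2:237225690-237225939, minus strand, and Amotl2 at chr8:112182376-112182625, plus strand.
Ctgf promoter: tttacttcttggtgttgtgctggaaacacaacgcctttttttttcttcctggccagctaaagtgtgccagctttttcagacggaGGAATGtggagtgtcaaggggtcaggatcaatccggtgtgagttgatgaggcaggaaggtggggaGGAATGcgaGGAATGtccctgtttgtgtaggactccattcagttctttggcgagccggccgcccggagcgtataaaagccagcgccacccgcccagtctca
Cyr61 promoter: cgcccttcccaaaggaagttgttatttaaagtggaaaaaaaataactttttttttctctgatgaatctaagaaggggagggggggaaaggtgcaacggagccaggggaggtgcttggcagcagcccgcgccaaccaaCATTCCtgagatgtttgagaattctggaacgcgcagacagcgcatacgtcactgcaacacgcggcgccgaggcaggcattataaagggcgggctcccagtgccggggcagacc
Amotl2 promoter: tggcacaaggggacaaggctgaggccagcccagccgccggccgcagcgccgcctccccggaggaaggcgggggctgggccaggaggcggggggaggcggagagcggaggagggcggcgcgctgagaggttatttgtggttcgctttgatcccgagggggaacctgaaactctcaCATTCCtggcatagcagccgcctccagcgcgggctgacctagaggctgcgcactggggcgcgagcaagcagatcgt
The Ctgf window holds 3 matches and the other windows 1 each. No promoter was found for Ankrd1, the most lowered gene of the list. The letters occur in 9.89% of the 8426 promoters, in 9.74% of those of higher genes and in 11% of those of lower genes.

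Of 25 YAP and SRF targets tested, 20 were lower and 5 higher, with a median of -1.0 (1.65 scaled to total reads), beside 24.2% lower among all nuclear genes. Ctgf, a secreted matricellular protein, read 129, 106 and 112 FPKM in ES50 and 19.1, 18.5 and 21.4 in P_ES50, a log2 difference of -2.49 ± 0.10 (adjusted p = 1.4e-05). The groups did not overlap, and the P_ES50 mean was also the lowest of the 6 groups, below 37.8 in NC, 42.2 in ES10, 65.2 in P_ES10 and 84.8 in P. Cyr61, its close relative, read 61.3, 64.3 and 56.4 in ES50 and 18.7, 16.9 and 15.5 in P_ES50, with means of 36.9 in NC, 112 in P, 35.8 in ES10 and 71.0 in P_ES10. Amotl2, which restrains YAP, averaged 33.1 ± 3.16 and 6.72 ± 0.640 (difference -2.14), also below the 14.6 of NC. Ankrd1, a nuclear and sarcomeric protein of strained muscle, read 1025, 1066 and 1052 in ES50 and 116, 106 and 122 in P_ES50 (difference -3.18 ± 0.06). It stood apart in ES50 from all other groups, with a mean of 66.8 in NC and 66.5 in P, and its difference was still -0.43 scaled to total reads.

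Actin-binding and contractile genes of the list were lower by smaller amounts. Tagln, an actin-bundling protein of smooth muscle, averaged 1801 and 836 FPKM and the tropomyosins Tpm1 and Tpm4 672 and 303, and 1260.1 and 476. Acta2, smooth muscle actin, averaged 3541 ± 78.4 and 1867 ± 27.0, a difference of -0.92 as deposited that was 1.83 scaled to total reads and 0.29 with quantile scaling. Muscle structure genes were lower in 9 of 13 and higher in 1, with a median of -1.04 (1.25 scaled to total reads), among them Tnnt2, cardiac troponin T, at 40.2 and 8.86. Hypertrophy markers were lower in 7 of 16 and higher in 3, with a median of -0.28 (1.30 scaled to total reads). Nppb, the natriuretic peptide B gene of that list, averaged 1.43 ± 0.229 and 1.45 ± 0.576 and was not called (difference -0.01 ± 0.21).

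Several of the largest decreases were in genes whose level was high in ES50 and in no other group. Tgfb3, a secreted growth factor of the TGF-beta family, read 488, 478 and 517 FPKM in ES50 and 54.8, 50.4 and 50.6 in P_ES50 (difference -3.23 ± 0.05, adjusted p = 1.5e-06). The P_ES50 values lay at the NC and P means of 51.6 and 46.4, and the ES50 values far above all other groups. The 19 TGF-beta targets, a list that holds Tgfb3 itself, were split, with 8 higher, 8 lower and a median of 0.48. Among all nuclear genes 28.5% were higher and 24.2% lower. Kif1c, a kinesin motor, averaged 409.8 ± 6.95 and 62.0 ± 4.45, Rab13, a small GTPase of membrane traffic, 147 ± 9.73 and 20.3 ± 1.16, and Palld, an actin-binding scaffold, 76.6 ± 3.25 and 8.10 ± 1.12. Their log2 differences were -2.71, -2.80 and -3.10 as deposited, and 0.03, -0.10 and -0.44 scaled to total reads. Kctd10, an adaptor of a ubiquitin ligase, went from 542 to 91.2, the microtubule-binding protein Map4 from 151 to 28.7, and Synpo2l, a protein of the muscle Z-disc, from 32.8 to 2.82. Sepw1, a small selenoprotein, read 619, 507 and 601 in ES50 and 245, 32.9 and 12.7 in P_ES50, so that its P_ES50 libraries disagreed widely among themselves (adjusted p = 0.026). Libraries of NC (149, 4.66 and 6.30) and ES10 (201, 6.05 and 5.90) disagreed likewise. So did those of P (4.37, 140 and 204) and P_ES10 (162, 4.34 and 10.5).

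Housekeeping components of the ribosome and of the respiratory chain had the highest counts of lower calls among the lists. Among all nuclear genes 24.2% were lower and 28.5% higher. Of 86 cytosolic ribosomal protein genes tested, 75 were lower and 1 higher, with a median of -1.0 (1.68 scaled to total reads). Their reads made up 7.29% of nuclear reads in ES50 and 3.57% in P_ES50 (exact permutation p = 0.1, the smallest possible). This share was 3.07% in NC, 2.87% in P, 2.94% in ES10 and 2.97% in P_ES10, so ES50 stood far above all other groups. The matrix list's share moved the other way, from 1.77% to 6.24% (exact permutation p = 0.1), with 7.06% in NC and 7.17% in P. Rplp0, a protein of the ribosomal stalk, averaged 3401 ± 95.1 and 1258 ± 33.0 FPKM (difference -1.43, and 1.32 scaled to total reads). Its NC libraries read 1025, 1024 and 1031. Rpsa, of the small subunit, differed by -1.25 and Rpl12, of the large subunit, by -1.07. Many of these genes have near-identical pseudogene copies, and how the authors' counting split reads among them is not given in the sources used here. Translation factors were lower in 16 of 28 and higher in 5, with a median of -0.27 that was 2.35 scaled to total reads and 0.18 with quantile scaling. The elongation factor Eef1a1 was among the lower ones as deposited (-0.60, against 2.16 scaled to total reads and 0.59 with quantile scaling), and the initiation scaffold Eif4g1 rose from 13.7 to 41.0. Ribosome biogenesis factors went the other way from ribosomal proteins, with 18 of 26 higher, 1 lower and a median of 0.75, including the nucleolar proteins Gnl3 (1.77), Ddx21 (1.71) and Nolc1 (1.16).

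Nuclear genes for mitochondrial proteins were lower in P_ES50 than in ES50 in several lists. Complex I subunits were lower in 26 of 32 and higher in none, with a median of -0.93 (1.73 scaled to total reads), and subunits of complexes II to V in 35 of 43 and higher in none, with a median of -0.78 (1.87 scaled to total reads). Ndufa5 and Ndufb7 of complex I differed by -0.95 and -1.02, and Uqcrb of complex III by -1.32. Cox8a of complex IV averaged 966 in ES50 and 431 in P_ES50, and read 386, 357 and 375 in the NC libraries. Mitochondrial ribosomal proteins were lower in 56 of 73 and higher in 1, with a median of -0.80 (1.6 scaled to total reads), including Mrpl54 (-1.22) and Mrpl42 (-1.49). Citric acid cycle enzymes were lower in 8 of 18 and higher in 1 (median -0.29, and 2.11 scaled to total reads). Genes of mitochondrial dynamics and mitophagy were lower in 5 of 16 and higher in 1 (median -0.02, and 1.96 scaled to total reads), beside 24.2% and 28.5% of all nuclear genes. The lower ones included the mitophagy kinase Pink1, at 32.3 in ES50 and 8.82 in P_ES50, and the fission protein Fis1, at 128 and 58.0. In the NC libraries Pink1 read 7.70, 8.51 and 7.70, and Fis1 52.0, 50.0 and 53.1. Factors that express mitochondrial RNA were higher in 5 of 18 and lower in 2 (median 0.35), a share of higher calls near the 28.5% of all nuclear genes. Glycolytic genes were higher in 4 of 18 and lower in 7, with a median of -0.24 that was 2.35 scaled to total reads and 0.33 with quantile scaling. Gapdh, a glycolytic enzyme often used as a reference, differed by -0.42 as deposited, 2.33 scaled to total reads and 0.33 with quantile scaling, and the reference gene Actb, cytoplasmic actin, by -1.0, 1.76 and 0.31.

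Genes of cell death and damage moved in both directions. Of 22 genes of the BCL2 family and apoptosis, 9 were lower and 3 higher, with a median of -0.23 (1.87 scaled to total reads). The pore-forming members Bax and Bok averaged 107 and 61.6 FPKM, and 54.3 and 21. Pmaip1, the death-promoting protein Noxa, fell from 45.2 to 15.4, and Apaf1, the core of the apoptosome, rose from 2.27 to 7.28. Bcl2, the survival protein, was at 0.322 in ES50, from 3 reads in all, and 2.30 in P_ES50. Vdac1, the outer membrane channel of mitochondria, differed by -0.20 ± 0.06 (adjusted p = 0.025), a call that was lost, among other settings, with a replicate block, with quantile scaling and without P_ES50 replicate 1 or 2. Genes of necroptosis, pyroptosis and ferroptosis were higher in 4 of 12 and lower in 3 (median 0.22), shares near the 28.5% and 24.2% of all nuclear genes. Plasma membrane repair genes were lower in 13 of 27 and higher in 7, with a median of -0.28 (2.22 scaled to total reads), and included S100a11, a calcium-binding annexin partner, at 3528 and 1561.

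Cytosolic heat shock chaperones were lower in 6 of 17 and higher in 5, with a median of -0.18 (2.17 scaled to total reads). For this and the next lists, the shares over all nuclear genes were 24.2% lower and 28.5% higher. The small heat shock proteins Hspb1 and Cryab fell from 1065 to 486 and from 196 to 64.3, and the co-chaperone Bag3 rose from 46.5 to 84.4. Cholesterol synthesis genes were lower in 12 of 23 and higher in 5, with a median of -0.37 (1.69 scaled to total reads). Fdps, an enzyme of the pathway, fell from 87.5 to 34.3. Proteasome subunits were lower in 15 of 31 and higher in 3, with a median of -0.24 (2.38 scaled to total reads), including Psmb4 (-0.86). Interferon response genes were lower in 5 of 15 and higher in 3, with a median of -0.37 (1.41 scaled to total reads). Genes of G1/S and DNA replication were lower in 11 of 29 and higher in 2, with a median of -0.28 (1.76 scaled to total reads). Those of G2/M and mitosis were higher in 7 of 28, near the 28.5% of all nuclear genes, and lower in 2 (median 0.17), among them the proliferation marker Mki67 at 11 and 30.2. Replication-dependent histone genes were lower in 2 of 17 and higher in none, with a median of 0.07 that was -0.35 with quantile scaling. The list of nuclear long noncoding and speckle RNAs had 2 members in the table and none that passed the filter on low values.

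Most microRNA and small nucleolar RNA genes tested had no ES50 read, and poly(A) libraries do not measure mature small RNAs. The mature sequences of Mir675 and Mir22 are given from RefSeq with the seed, bases 2 to 8, in capitals. They are shown because Mir675 was the most read microRNA gene and Mir22 the one most changed against the PE effect without pulses. No seed is shared among them.
rno-miR-675-5p: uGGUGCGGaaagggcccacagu
rno-miR-675-3p: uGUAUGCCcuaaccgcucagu
rno-miR-22-5p: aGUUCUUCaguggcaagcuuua
rno-miR-22-3p: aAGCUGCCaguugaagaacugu
Mir675 read 17838, 18099 and 17642 FPKM in ES50 and 5316, 4735 and 5446 in P_ES50, and was named after its values were seen. ES50 was high and P_ES50 lay at the NC mean of 5286, a difference of -1.79 as deposited, 0.97 scaled to total reads and 0.59 with quantile scaling. In RefSeq's GRCr8 annotation the hairpin lies inside the long noncoding RNA H19. Mir22 read 0, 32.0 and 0 in ES50 and 80.6, 103 and 62.4 in P_ES50, from 8 and 345 reads (adjusted p = 0.03), so 1 library supplied every ES50 read. The call was lost in 5 of the 6 fits that left out 1 library, with adjusted p of 0.083 to 0.10; without ES50 replicate 2 it held.

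Of 199 microRNA genes tested, 63 were higher and 4 lower (31.7% and 2.01%, beside 28.5% and 24.2% of all nuclear genes). No ES50 read was assigned to 141 of them, which supplied 53 of the higher calls and could not be lower. All 1588 microRNA genes, tested or not, together took 0.286% of nuclear reads in ES50, 0.104% in P_ES50 and 0.109% in NC. This sum holds Mir675, the most read of them, which was lower in P_ES50 as deposited. The sum therefore does not describe the other microRNA genes. The median difference of the 199 tested genes was 0.81 as deposited, 0 with thinned reads and -0.86 with voom on the recovered reads. Of 266 small nucleolar RNA genes, which guide chemical changes of ribosomal RNA and mostly lie in introns of other genes, 134 were higher and none lower (50.4% higher). Their median was 1.44 as deposited, 1.01 with thinned reads and 0.23 with voom. No ES50 read was assigned to 197 of them, which supplied 112 of the higher calls and could not be lower. All 1654 small nucleolar RNA genes, tested or not, took 0.00911% of nuclear reads in ES50, 0.0400% in P_ES50 and 0.0495% in NC. SNORD29 averaged 6.41 ± 6.66 and 192 ± 5.61 FPKM, from 3 and 544 reads. SNORA9 (the entry on chromosome 14) and SNORD79 had no read in ES50 and averaged 27.3 and 35.2 in P_ES50, which is at least 8.67-fold and at least 7.14-fold higher when ES50 is set at a floor of 3 reads over the group.

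Among protein-coding genes, the difference followed the length and level of the gene. Of 5 groups of nearly equal size, the shortest genes, of 57 to 1312 bases, moved down most: 12.1% were higher and 44.5% lower (median -0.50). Among the longest, of 3963 to 24116 bases, 47.5% were higher and 12.2% lower (median 0.43). The medians between them were -0.15, 0.06 and 0.21, and with thinned reads the end groups stood at -0.52 and 0.43. By mean FPKM the medians went from 0.30 in the group with the lowest level to -0.43 in the highest. Many matrix and adhesion genes are long and many ribosomal and respiratory genes are short, and the part of length in the list results was not tested. By protein domain, the families of at least 15 genes with the highest medians were those with cadherin domains (1.32, 13 of 16 higher), collagen repeats (1.19, 19 of 25 higher) and calcium-binding EGF domains (0.99). The lowest were those with Nudix domains (-0.66), LIM domains (-0.63, 20 of 34 lower) and the ubiquitin-conjugating fold (-0.50). Of 90 genes with a Ras domain, 48 were lower (median -0.37). Beside these families, 28.5% of all nuclear genes were higher and 24.2% lower.

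The mitochondrially encoded genes were analysed apart. Of 34 tested, 31 were lower in P_ES50 (91.2%) and none higher. All 13 mRNAs were lower, with a median of -3.74 and a range of -3.92 to -3.43, and the ribosomal RNAs differed by -4.05 and -4.21. Of 19 transfer RNA genes 16 were lower, with a median of -3.98. Some of these calls rest on few reads, such as 12 in ES50 and 3 in P_ES50 for AY172581.22, and 23 and 4 for AY172581.23. The latter passed the filter on low values only through its ES50 libraries, which favours a lower call. The differences of all these mitochondrial genes are relative to nuclear reads. Scaled to total reads the medians were -0.99 for mRNAs and -1.36 for transfer RNAs, with no change of sign among the mRNAs. The transfer RNA genes AY172581.4 and AY172581.21, which were not called, became positive, at 0.23 and 0.26. Quantile scaling gives libraries the same set of values by rank, so it can show little change of genes at the highest ranks. With it, Mt-co1, the largest subunit of complex IV and the mRNA with the most mitochondrial reads, differed by 0.10. Without pulses the mRNAs were also lower with PE, by a median of -1.35, and all 13 differed in PE effect between 50 and 0 pulses, with a median interaction of -2.38.

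Within mitochondrial reads, the shares of several mRNAs lay close together in P_ES50 and ES50. Mt-nd5, a subunit of complex I, took 0.907% ± 0.0914 (SD, n = 3) of them in ES50 and 0.857% ± 0.0274 in P_ES50, and 3.04% in NC, 3.11% in P, 2.60% in ES10 and 2.49% in P_ES10. The ES50 libraries ranged from 0.853% to 1.01% and the P_ES50 libraries from 0.838% to 0.889%, so these groups overlapped and both lay below the other 4. Mt-nd4l, another complex I subunit, took 0.130% in ES50 and 0.126% in P_ES50, against 0.761% in NC and in P. Mt-nd4 took 0.297% in both groups given 50 pulses, against 0.617% in NC, 0.616% in P, 0.518% in ES10 and 0.485% in P_ES10, whose lowest library, at 0.321%, lay inside the ES50 range. Mt-atp6, a subunit of ATP synthase, took 15% and 15.9%, against 12.5% in NC and 12.3% in P. Its libraries did not overlap, at 14.6% to 15.3% in ES50 and 15.6% to 16.1% in P_ES50. Others did not follow this pattern. Mt-nd1, of complex I, took 4.70% in ES50, 3.96% in P_ES50 and 3.92% in NC, and Mt-nd2 4.51%, 3.99% and 3.98%. For Mt-co1 the P_ES50 share lay between, with 30.1% in ES50, 32.5% in P_ES50 and 34.4% in NC. The genes Mt-nd4l and Mt-nd4, Mt-atp8 and Mt-atp6, and Mt-nd5 and Mt-nd6 lie against or over each other, and whether the counting used strand is not given in the sources used here, so reads at their shared ends are uncertain.

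**Figure D5:**
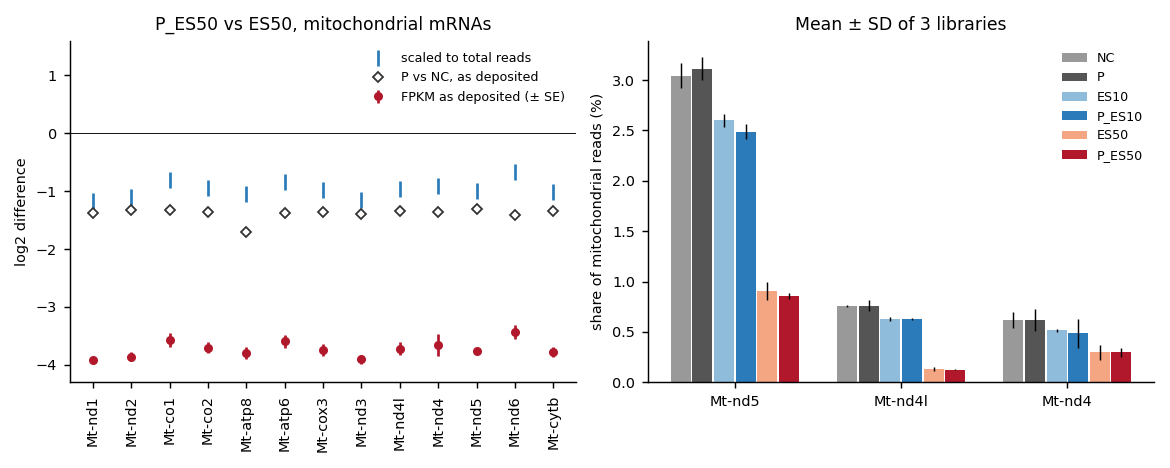
Log2 difference of P_ES50 against ES50 for the 13 mitochondrial mRNAs as deposited (red, with SE) and scaled to total reads (blue bars), with P against NC as diamonds (left), and the share of mitochondrial reads taken by 3 genes in each group, as the mean and SD of 3 libraries (right). For Mt-nd5 the ES50 and P_ES50 libraries lie between 0.838% and 1.01%, below the NC mean of 3.04%.

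The PE effect after 50 pulses was also set beside the PE effect without pulses (P against NC) and after 10 pulses (P_ES10 against ES10), which share no library with it. Without pulses 1420 nuclear genes were higher and 1281 lower (22.7% in all), and after 10 pulses 353 (2.97%) and 508 (4.28%), or 7.25% in all. These background counts were less stable than those after 50 pulses: leaving out any 1 of the libraries compared gave 1574 to 1871 calls without pulses and 153 to 333 after 10 pulses, where 2701 and 861 were called with all of them. Over the 11883 genes, the differences after 50 pulses and without pulses had a Pearson correlation of 0.065, and those after 50 and 10 pulses of -0.011. These are correlations across genes, which are not independent replicates, and are given as a description. Both PE comparisons without pulses and after 50 pulses called 943 genes in the same direction, which is 34.9% of the calls without pulses and 15.1% of those after 50, and called 767 in opposite directions. The test of the difference itself called 6262 nuclear genes (52.7%) for 50 against 0 pulses and 6388 (53.8%) for 50 against 10 pulses. For 3329 of the 6262, the PE effect was more positive, or less negative, after 50 pulses than without pulses.

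The genes with the largest such differences repeat the leading genes above. Hmox1 was lower with PE without pulses (-1.14) and higher after 50 pulses, a difference of 5.80 on the log2 scale in limma (adjusted p = 1.9e-10). Cxcl1 (5.74), Adm (5.34) and Lif (5.27) were likewise lower with PE without pulses and higher after 50. In the other direction Ctgf and Cyr61 were higher with PE without pulses (1.15 and 1.57) and lower after 50 pulses, with differences of -3.64 and -3.35. For Tgfb3 and Ankrd1 the PE effect without pulses was near 0 (-0.15 and -0.01).

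The labelled cell type was checked against marker genes. Of 10 cardiomyocyte markers, 6 stayed below 1 FPKM in every library, including both cardiac myosin heavy chains, Actc1, Myl7, Nppa and Ryr2. The markers' summed level, led by Tnnt2 and Pln, was 48.8 to 56.7 FPKM in ES50 libraries and 12.5 to 14.5 in P_ES50 libraries. Of the 3 cardiomyocyte markers tested, 2 were lower and 1 higher. The higher one, Tnni3, averaged 0.512 in ES50 and 2.34 in P_ES50. Summed fibroblast markers, led by Col1a1 and sharing collagen genes with the matrix list, stood at 551 to 579 in ES50 and 2256 to 2646 in P_ES50, with Dcn and Pdgfra below 1 throughout. Summed smooth muscle markers, led by Acta2 and Tagln, stood at 5500 to 5737 and 2808 to 2877. Summed skeletal myoblast markers, led by Myod1, stood at 74.9 to 83.0 and 43.5 to 47.8, and all 3 tested were called lower. Myod1 averaged 57.5 in ES50, 35.3 in P_ES50 and 32.0 in NC. All 5 endothelial markers in the table stayed below 1 FPKM, and so did 3 of 6 leukocyte markers, with Ptprc at 0 in every group mean, and 3 of 4 epithelial markers. Both leukocyte markers that passed the filter, Cd68 and Csf1r, were called higher, from 0 FPKM in ES50 to 1.21 and 0.568 in P_ES50, with 0.934 and 0.669 in NC. Summed leukocyte markers stood at 0 to 2.60 in ES50 and 1.87 to 3.49 in P_ES50. The epithelial keratin Krt8 was also called higher, at 6.62 in ES50, 13.3 in P_ES50 and 16.5 in NC. The part of these marker shifts in the list results was not tested.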

How the data were processed

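Gene-level FPKM values of all 18 libraries, deposited by the authors in 1 table with gene lengths, were used. They come from poly(A) libraries made from 1 µg RNA, per the labels' protocols. The submitters' processing notes name Rnor_6.0. Not given in the sources used here: aligner, counter, strandedness. Depth was 14004929 to 17247201 reads assigned to genes per library.

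Genes with FPKM of at least 1 in at least 3 of 18 libraries were tested on log2(FPKM + 1) with limma 3.58.1 in R 4.3.3 (trend), on the 6 libraries of a contrast or the 12 of a difference between contrasts, with Benjamini-Hochberg adjustment over all genes tested. FPKM steps gave whole reads (within 0.01), used for voom and for thinning. Scripts were tested on simulated data. Named genes were the 20 largest changes each way that did not overlap, up to 4 members a list by adjusted p, the 10 largest differences in PE effect each way, mitochondrial genes and 16 chosen genes; exceptions are stated. Members and lists were chosen with earlier results of these data known. Alternatives were other pseudocounts, filters, scalings, fits and leaving out libraries. Promoters and mature miRNAs came from RefSeq tables (GRCr8). Protein sequences were not used here.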

Additional observations from a re-analysis of the deposited data

Results flagged for a closer look

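The PE effect after 50 pulses differed from the PE effect without pulses in 6262 nuclear genes and from the PE effect after 10 pulses in 6388, by limma's test of the difference itself at an adjusted p under 0.05. The genes below had the largest such differences from the effect without pulses, as log2 values.

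Upward, the difference was 5.80 for Hmox1, 5.74 for Cxcl1, 5.34 for Adm, 5.27 for Lif and 4.98 for Adgre5. It was 5.32 for SNORA9 on chromosome 14, 5.15 for SNORD79, 4.94 for SNORD74, 4.89 for SNORD19 and 5.08 for Mir22, all of which had few or no reads in ES50.

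Downward, it was -3.64 for Ctgf, -3.35 for Cyr61, -3.18 for Ankrd1, -3.08 for Tgfb3, -2.88 for Rab13, -2.81 for Synpo2l, -2.81 for Amotl2 and -2.78 for Palld. It was -3.12 for Tsen34, a subunit of the transfer RNA splicing endonuclease, and -2.76 for the lower of the 2 Smtn entries, smoothelin. In P_ES50 against ES50 alone these last genes differed by -1.73 and -2.18 and were not called.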

How the results depend on the processing

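Leaving out each library in turn gave 2718 to 3475 nuclear genes higher, 2281 to 2919 lower and 30 to 32 mitochondrial genes called in P_ES50 against ES50. It gave a mitochondrial share difference of -44.0 to -42.6 percentage points, 5634 to 6853 genes whose PE effect differed between 50 and 0 pulses, and 5787 to 6972 between 50 and 10 pulses. The counts for PE without pulses ranged from 1574 to 1871 and for PE after 10 pulses from 153 to 333. Scaling to total reads gave 11117 nuclear genes higher and 11 lower, and 10550 and 10664 genes for the differences in PE effect; by its construction it adds the fall in mitochondrial reads to every nuclear gene. The mitochondrial share of summed FPKM differed by -29.1 percentage points in place of -43.5. For P against NC the count was 1113 with all 18 libraries in the fit and 1748 with no filter on low values. For P_ES10 against ES10 the count was 201 with all 18 libraries, 323 with no filter and 1522 with voom on recovered reads. Apart from the scaling, the causes of these shifts were not tested.

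The replicate numbers did not pair the samples: same-numbered libraries of P_ES50 and ES50 had correlated deviations of -0.014 to 0.009. With a replicate block there were 3011 nuclear genes higher and 2622 lower, 1649 called for P against NC and 117 for P_ES10 against ES10.

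Of the 148 genes followed through the alternatives, these had a positive log2 difference when scaled to total reads although negative as deposited: Acta2 1.83, Actb 1.76, Amotl2 0.39, Atf5 0.90, Bax 1.90, Bok 1.27, Ccng1 1.42, Cox8a 1.58, Cryab 1.12, Ctgf 0.19, Cxcl12 1.19, Cyb5r3 1.46, Cyr61 0.85, Ddr2 2.22, Dynll2 0.63, Eef1a1 2.16, Fdps 1.34, Fis1 1.56, Ftl1 1.73, Gapdh 2.33, Hspb1 1.62, Kank2 0.29, Kctd10 0.18, Kif1c 0.031, Maff 1.59, Map4 0.34, Mir675 0.97, Mrpl42 1.10, Mrpl54 1.52, Ndufa5 1.75, Ndufb7 1.69, Net1 0.020, Nppb 0.96, Pink1 0.77, Pkp4 1.34, Pmaip1 1.09, Psmb4 1.86, Rpl12 1.68, Rplp0 1.32, Rpsa 1.5, S100a11 1.58, Sec61b 1.47, Tagln 1.65, Tnnt2 0.50, Tpm1 1.6, Tpm4 1.35, Trak2 0.26, Uqcrb 1.31 and Vdac1 2.36. The mitochondrial transfer RNA genes AY172581.4 and AY172581.21, not called as deposited, also became positive, at 0.23 and 0.26. With quantile scaling the difference was likewise positive for Acta2 0.29, Actb 0.31, Eef1a1 0.59, Ftl1 0.21, Gapdh 0.33, Mir675 0.59 and Mt-co1 0.10. Calls for Sepw1, Vdac1 and Mir22 were lost in several fits, Mir22 in 5 of the 6 fits without 1 library. Depth limits the ES50 values most: genes with few ES50 reads have wide errors there, and a value of 0 allows up to 3 reads over the group. Reads are not independent molecules, so this floor covers counting error only.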

Other observations

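A set of mRNAs known from other cells to gather at cell protrusions held several of the strongest decreases. The set was put together after values of Rab13, Kif1c, Trak2 and Kank2 had been seen, so its count is a description and no support. Of 9 such genes tested, 8 were lower in P_ES50 and none higher, with a median log2 difference of -2.11 (0.29 scaled to total reads), beside 24.2% lower among all nuclear genes. Trak2, an adaptor of mitochondrial transport, went from 63.1 ± 3.04 FPKM in ES50 to 11.4 ± 0.134 in P_ES50, and Kank2, an adhesion-linked scaffold, from 66.2 ± 1.5 to 12.2 ± 0.455. Net1 differed by -2.11, Dynll2, a dynein light chain, by -2.08, Cyb5r3, a cytochrome b5 reductase, by -1.19 and Pkp4, a plakophilin, by -1.12. Ddr2, a collagen receptor, was at 12.5 ± 1.66 and 12.4 ± 0.328 and was not called. For Trak2 and Kank2 the P_ES50 means were near the NC means of 9.74 and 12.8.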
